A study of Mus musculus with 18 samples.

Results

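Small nucleolar RNA host genes are genes whose introns carry small nucleolar RNAs (snoRNAs), and 8 of them, Snhg1, Snhg3, Snhg4, Snhg5, Snhg6, Snhg8, Snhg12 and Gas5, are described here out of 55138 genes in the deposited expression table. They were taken by gene symbol, and the set was chosen by the measured values of Snhg1 and Snhg6, which were lower in E10.5 Del(i9-13):Hoxb13hd than in wild type, so that comparison is given below as a description and not as a test.

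snoRNAs are cut out of spliced introns and guide chemical modification of ribosomal RNA: those with boxes C and D guide methylation of the ribose, and those with boxes H and ACA guide conversion of uridine to pseudouridine. The remaining spliced host transcript usually codes for no functional protein. Many hosts start with a run of C and T bases, as ribosomal protein mRNAs do, which ties their translation to growth signals, and translated host transcripts are removed by nonsense-mediated decay.

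RNA came from mouse embryos dissected without the head, in 18 libraries that formed 6 groups of 3. The groups were homozygous Del(i9-13) and wild type (WT) at embryonic day 9.5 (E9.5), and homozygous Del(i9-13):Hoxb13hd, homozygous Del(i9-13), homozygous Hoxb13hd and WT at E10.5. Del(i9-13) is an allele of the HoxB cluster of homeobox genes, and the labels leave the abbreviation hd unexplained. WT embryos were littermates, and the labels do not say whether a library held 1 embryo or several, nor the strain, so p-values cover library-to-library spread, which may be partly technical. Poly(A) enrichment was used at E9.5 and ribosomal RNA depletion at E10.5, so stage and library type cannot be told apart.

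Libraries held 29829820 to 35934843 counts at E9.5 and 19333138 to 25722951 at E10.5. Hoxb13 read counts were 1299 to 1421 in E9.5 Del(i9-13), against 1 to 4 in E9.5 WT. At E10.5 they were 228 to 307 in Del(i9-13):Hoxb13hd, 130 to 288 in Del(i9-13) and 0 to 2 in Hoxb13hd, against 1 to 25 in WT. The 8 trunk markers summed to 227 to 492 CPM (read counts adjusted for library size by TMM) with none at 0, and 5 head and brain markers (Emx2, Lhx2, Otx2, Six3, Hesx1) to 13.4 to 38.9 CPM over all libraries. Headless embryos mix many cell types, and fewer cells of a type and less RNA per cell cannot be told apart in such RNA.

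The start regions are shown first, and their part in the levels given below was not tested. RefSeq promoter entries (build GRCm38.p6) covered 6 of the 8 genes, with a pair of starts for Gas5, giving 7 windows of 50 bases before and 30 bases from the annotated start on. Capitals mark TATAAA on either strand (TTTATA when read on the other strand) or TATATA, which is its own complement, and a run of C followed by at least 4 bases that are C or T, read on the transcript's strand and beginning from 10 bases before to 20 bases after the start. The windows lie at chr19:8723437-8723516 (plus strand) for Snhg1, chr4:132353657-132353736 (minus) for Snhg3, chr9:88522868-88522947 (minus) for Snhg5, chr3:123508307-123508386 (minus) for Snhg8, chr4:132308628-132308707 (plus) for Snhg12, and chr1:161034551-161034630 and chr1:161035116-161035195 (plus) for Gas5.
Snhg1: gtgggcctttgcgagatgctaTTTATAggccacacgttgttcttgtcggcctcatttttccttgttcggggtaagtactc
Snhg3: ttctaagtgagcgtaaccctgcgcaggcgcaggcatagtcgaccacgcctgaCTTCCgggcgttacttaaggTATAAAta
Snhg5: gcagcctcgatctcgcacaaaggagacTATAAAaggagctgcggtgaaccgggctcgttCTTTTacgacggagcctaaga
Snhg8: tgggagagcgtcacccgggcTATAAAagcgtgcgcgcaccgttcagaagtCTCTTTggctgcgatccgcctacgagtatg
Snhg12: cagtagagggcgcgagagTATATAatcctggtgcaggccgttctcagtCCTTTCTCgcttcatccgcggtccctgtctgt
Gas5, first start: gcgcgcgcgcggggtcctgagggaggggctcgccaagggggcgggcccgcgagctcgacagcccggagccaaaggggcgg
Gas5, second start: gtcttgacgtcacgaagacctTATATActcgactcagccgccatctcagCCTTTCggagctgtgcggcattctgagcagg
TATAAA or TATATA stood in 6 of the 7 windows, against 5.58% of 32851 RefSeq mouse promoter windows of the same length. The C and T run stood in 5 of the 7, against 39.1% of all windows, and both stood in 5 of the 7, against 2.27%. The first Gas5 window held neither. In Snhg3 the TATAAA stood 22 bases after the start and not before it, and Snhg3 counts toward both totals only with that word. In Snhg5 the run began 9 bases after the start. These are matches of letters, and no factor binding was measured.

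Among the 8 transcripts, Gas5 and Snhg1 were the most abundant in every group when compared in FPKM, fragment values scaled by transcript length and library depth. In E9.5 Del(i9-13) libraries Gas5 averaged 249 ± 6.71 FPKM and Snhg1 113 ± 1.00 FPKM, against 219.8 ± 18.8 and 181 ± 62.8 FPKM in E9.5 WT (SD, n = 3 each). At E10.5 Gas5 averaged 178 ± 40.4 FPKM in Del(i9-13):Hoxb13hd, 222 ± 13.4 in Del(i9-13) and 156 ± 2.86 in Hoxb13hd, against 179 ± 15.7 in WT (SD, n = 3 each). Snhg1 averaged 87.2 ± 7.28 FPKM in Del(i9-13):Hoxb13hd, 131 ± 26.5 in Del(i9-13) and 197 ± 34.3 in Hoxb13hd, against 154 ± 16.2 in WT. Gas5 stood above Snhg1 in group mean everywhere except in Hoxb13hd, where Snhg1 was above Gas5, and the libraries of the pair overlapped in both WT groups.

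The other 6 transcripts had group means between 14.9 FPKM (Snhg4 in Del(i9-13):Hoxb13hd) and 45.5 FPKM (Snhg3 in E9.5 Del(i9-13)). In E9.5 Del(i9-13) the order was Snhg3, Snhg5, Snhg6, Snhg8, Snhg12 and Snhg4, and every neighbouring pair but the last overlapped in range. In E9.5 WT Snhg8 stood above Snhg6, with Snhg5 not overlapping Snhg8 and Snhg12 not overlapping Snhg4. At E10.5 Snhg8 held rank 3 in all 4 groups, averaging 37.9 ± 1.93 FPKM in Del(i9-13):Hoxb13hd, 41.2 ± 5.63 in Del(i9-13) and 39.8 ± 4.21 in Hoxb13hd, against 35.1 ± 1.68 in WT (SD, n = 3 each). Its range overlapped that of the next gene in every E10.5 group but Del(i9-13):Hoxb13hd. Snhg6 held rank 7 in Del(i9-13):Hoxb13hd, rank 4 in Del(i9-13) and rank 8 in Hoxb13hd, against rank 5 in WT. Its range overlapped that of a gene of neighbouring rank in every one of these groups but Del(i9-13):Hoxb13hd. Its E10.5 means were 17.4 ± 0.932 FPKM in Del(i9-13):Hoxb13hd, 39.8 ± 6.22 in Del(i9-13) and 19.6 ± 1.49 in Hoxb13hd, against 32.5 ± 4.94 in WT.

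**Figure D1:**
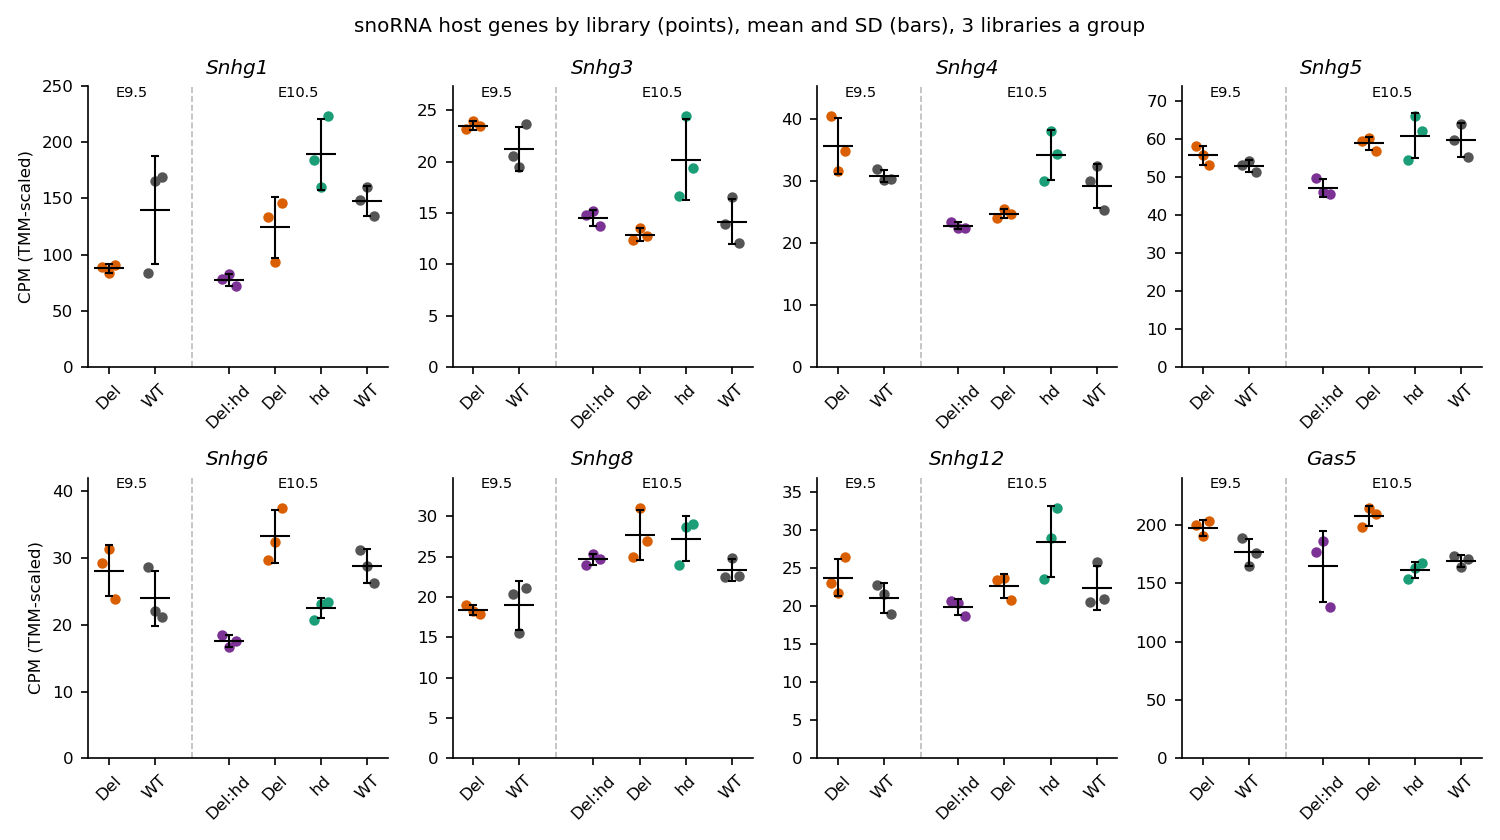
Level of each host gene in CPM (vertical axis, linear from 0, TMM-scaled within a stage) by group, with Del for Del(i9-13), Del:hd for Del(i9-13):Hoxb13hd and hd for Hoxb13hd. Points are libraries and bars the mean and SD of 3; the Del:hd points of Snhg1 lie at 71.8 to 82.7 CPM, below every other E10.5 library, and those of Snhg6 are low in both hd groups.

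The 8 genes together took 0.0407%, 0.0413% and 0.0344% of all counts in Del(i9-13):Hoxb13hd libraries, against 0.0504%, 0.0514% and 0.0471% in E10.5 WT. Every Del(i9-13):Hoxb13hd library lay below every other E10.5 library in this share. In that comparison, which the choice of genes used, 6 of the 8 log2 fold changes were negative, with a median of -0.26, beside 0.00 over all 17202 genes tested. Snhg1 (log2 fold change -0.93, SE 0.16) and Snhg6 (-0.71, SE 0.10) were the 2 of 8 called lower, where 0.209% of all genes were called lower, and nothing is read from that count. Snhg1 was called in 0 of the 6 fits that left out 1 library, and Snhg6 in 3 of them. Snhg6 lost its call without WT replicate 1, WT replicate 2 or Del(i9-13):Hoxb13hd replicate 3. Fewer genes were called in general in these 6 fits, 14 to 41 against 69 with all libraries. Snhg4 (-0.36, SE 0.10) and Snhg5 (-0.34, SE 0.08) were not called, and the remaining 4 lay between -0.17 for Snhg12 and 0.08 for Snhg8. Libraries of the groups did not overlap, all lower, for Snhg1, Snhg4, Snhg5 and Snhg6, where 10.3% of all genes were so. The 5 head and brain markers summed to 35.0 to 38.9 CPM in Del(i9-13):Hoxb13hd against 21.4 to 26.99 CPM in WT, without overlap, with 2 of the 5 at 0 in each. In Del(i9-13) they summed to 32.9 to 36.8 CPM, also above WT without overlap, so this is not particular to the double mutant. The 4 nuclear RNAs listed summed to 1177 to 1470 CPM in Del(i9-13):Hoxb13hd against 1568 to 1951 CPM in WT, with none at 0. Their part in the difference was not tested. All other E10.5 comparisons share libraries with this one or with each other, so their values are set side by side and none supports another.

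**Figure D2:**
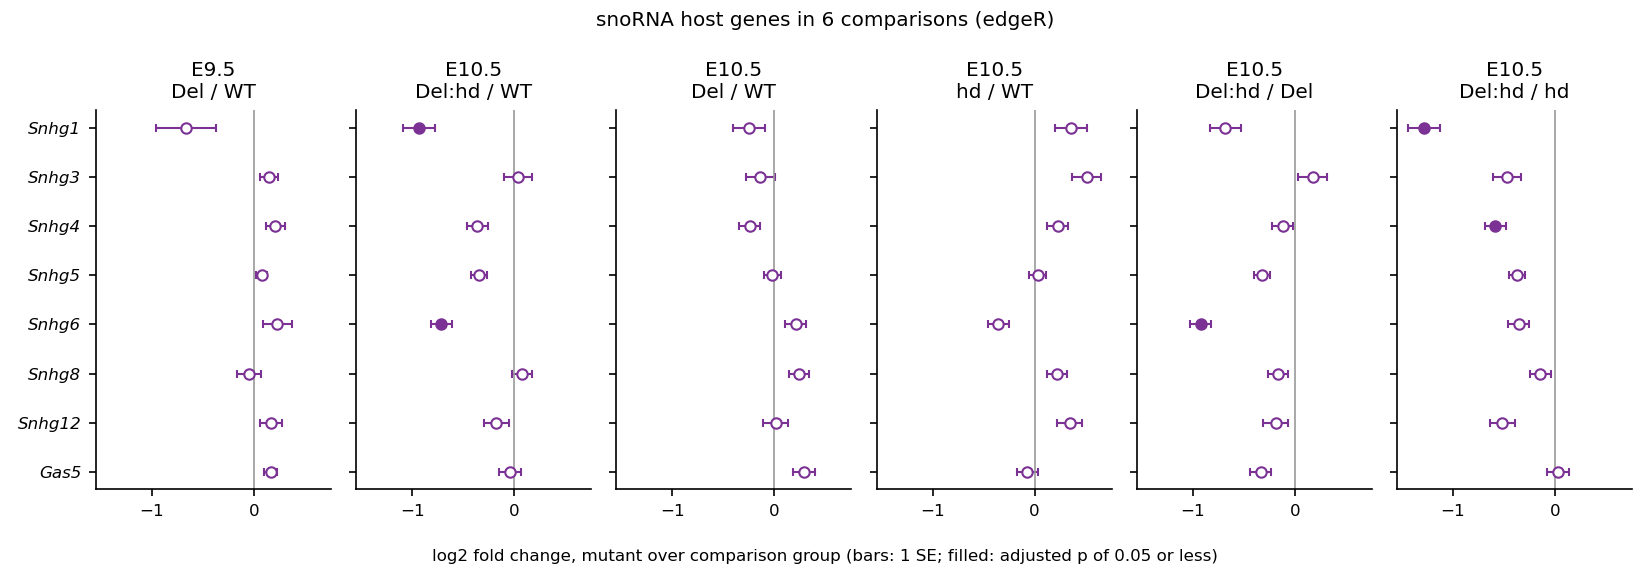
Log2 fold change of each host gene (horizontal axis, mutant over the group it is set against, edgeR) in 6 comparisons, with 1 SE as bars and filled points where the adjusted p was 0.05 or less. Snhg1 is filled in Del:hd over WT and Del:hd over hd, Snhg6 in Del:hd over WT and Del:hd over Del, and Snhg4 in Del:hd over hd.

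Snhg1, at chr19:8723475-8726443 (mm10, plus strand), holds 8 annotated snoRNA entries, among them Snord22, and 14 of its 18 annotated transcripts are retained-intron forms. Its E10.5 levels were 78.2, 82.7 and 71.8 CPM in Del(i9-13):Hoxb13hd, 133, 93.5 and 146 in Del(i9-13) and 184, 161 and 223 in Hoxb13hd, against 149, 161 and 134 in WT. The double mutant was lowest without overlap, and every Hoxb13hd library lay above every Del(i9-13) library. Del(i9-13):Hoxb13hd fell below Hoxb13hd, with a log2 fold change of -1.29 (SE 0.16, adjusted p = 0.00327, edgeR quasi-likelihood test with Benjamini-Hochberg adjustment). This was the widest difference among the 8 genes over the 6 comparisons of 2 groups. It uses the Del(i9-13):Hoxb13hd libraries whose Snhg1 values were part of the choice of genes. Against Del(i9-13) the value was -0.68 (SE 0.16), which missed the threshold in edgeR (adjusted p = 0.0666). It was called by DESeq2 (adjusted p = 0.00151), with Xist as a covariate in edgeR (0.0471) and in edgeR without Del(i9-13) replicate 2 (0.00672), the library at 93.5 CPM. That library was also the one of its group with low Xist, at 32 counts against 17445 and 13030. The covariate and the left-out library are thus not separate checks. Neither single mutant differed from WT by the test: -0.25 (SE 0.15, adjusted p = 0.682) for Del(i9-13) and 0.36 (SE 0.15, adjusted p = 0.217) for Hoxb13hd, both by edgeR.

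Snhg6, at chr1:9941959-9944118 (minus strand), carries Snord87, a box C/D snoRNA. It had 18.4, 16.6 and 17.5 CPM in Del(i9-13):Hoxb13hd, 29.7, 32.4 and 37.5 in Del(i9-13) and 20.7, 23.2 and 23.5 in Hoxb13hd, against 31.2, 28.8 and 26.2 in WT. All 6 libraries that carry hd lay below all 6 E10.5 libraries that do not. Del(i9-13):Hoxb13hd fell below Del(i9-13) by a log2 fold change of -0.92 (SE 0.10, adjusted p = 0.000454, edgeR), and this was called in all 6 fits that left out 1 library and all 10 other alternatives. All of these fits use Del(i9-13):Hoxb13hd libraries, whose low Snhg6 values were part of the choice of genes, so none is an independent check. Hoxb13hd against WT gave -0.36 (SE 0.10, adjusted p = 0.0752, edgeR), short of the threshold. On FPKM the same contrast was -0.72 (limma, adjusted p = 0.0133), and DESeq2 on counts called it at -0.36 (adjusted p = 0.0241). Del(i9-13):Hoxb13hd was at -0.36 against Hoxb13hd (SE 0.10, adjusted p = 0.110, edgeR).

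Snhg5, at chr9:88521050-88522929 (minus strand), hosts the box C/D snoRNAs Snord50a and Snord50b. The deposited data list it at chr9:88495268-88523562, a wider span, so its values could include reads from outside the GENCODE range. Levels were 49.6, 46.0 and 45.5 CPM in Del(i9-13):Hoxb13hd, 59.4, 60.2 and 56.8 in Del(i9-13) and 54.4, 65.9 and 62.1 in Hoxb13hd, against 59.7, 64.0 and 55.2 in WT. The double mutant was the low group without overlap and the other 3 groups overlapped each other. Its log2 fold change was -0.32 against Del(i9-13) (SE 0.08, adjusted p = 0.0822, edgeR) and -0.37 against Hoxb13hd (SE 0.08, adjusted p = 0.0509, edgeR). DESeq2 called both of these (adjusted p = 0.0171 and 0.00351), and edgeR called the second without Hoxb13hd replicate 1 (adjusted p = 0.0179). Without that library 412 of 17537 genes were called in the second comparison, against 165 of 17202 with all libraries.

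Gas5, growth arrest-specific 5, at chr1:161034422-161038539 (plus strand), holds 10 annotated entries typed as snoRNA, most of them box C/D. It had 177, 186 and 130.0 CPM in Del(i9-13):Hoxb13hd, 198, 215 and 209 in Del(i9-13) and 154, 163 and 167 in Hoxb13hd, against 173, 164 and 171 in WT. Del(i9-13) was high without overlap (against WT, 6.37% of all genes were), and 1 double-mutant library was the lowest of the 12. No E10.5 comparison called it: the values were -0.33 (SE 0.10, adjusted p = 0.143) for Del(i9-13):Hoxb13hd against Del(i9-13) and 0.29 (SE 0.10, adjusted p = 0.377) for Del(i9-13) against WT, by edgeR.

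The other 4 genes carry mainly box H/ACA snoRNAs. Snhg4, at chr18:35553371-35558316 (plus strand), hosts Snora74a and had 23.4, 22.5 and 22.4 CPM in Del(i9-13):Hoxb13hd, 24.0, 25.4 and 24.7 in Del(i9-13) and 29.98, 38.1 and 34.3 in Hoxb13hd, against 29.96, 32.4 and 25.3 in WT. The double mutant was lowest without overlap, Del(i9-13) overlapped WT at its upper end, and Hoxb13hd overlapped WT. Del(i9-13):Hoxb13hd fell below Hoxb13hd, with a log2 fold change of -0.59 (SE 0.10, adjusted p = 0.0211, edgeR). That call was lost in 5 of the 6 fits that left out 1 library. The adjusted p was 0.0735, 0.0931 and 0.0885 without Del(i9-13):Hoxb13hd replicates 1, 2 and 3 (edgeR). It was 0.113 and 0.0837 without Hoxb13hd replicates 2 and 3 (edgeR). Calls over all genes fell too, from 165 to 38, 43, 51, 36 and 39 in these 5 fits, in the same order. They rose to 412 without Hoxb13hd replicate 1, where Snhg4 kept its call. The log2 value of Snhg4 stayed between -0.66 and -0.50 in all 6 fits. Gm28285, on the same strand, spans 4913 of the 4946 bases of Snhg4 and was not among the counted genes. Reads of this pair cannot be told apart.

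Snhg3, at chr4:132348014-132353686 (minus strand), hosts Snora73a and Snora73b. Its levels were 14.8, 15.1 and 13.7 CPM in Del(i9-13):Hoxb13hd, 12.3, 13.5 and 12.7 in Del(i9-13) and 16.6, 24.4 and 19.4 in Hoxb13hd, against 13.9, 16.5 and 12.1 in WT. Hoxb13hd was the high group, above every other E10.5 library (12.8% of all genes were higher than WT without overlap), with replicate 2 highest. The edgeR log2 fold change of Hoxb13hd over WT was 0.51 (SE 0.14, adjusted p = 0.0679), and DESeq2 called it (adjusted p = 0.0189). It was also called in edgeR without Hoxb13hd replicate 1 (0.63, adjusted p = 0.0284) and without WT replicate 2 (0.64, adjusted p = 0.0389). These fits called 676 of 17537 and 551 of 17575 genes, against 517 of 17202 with all libraries. Del(i9-13):Hoxb13hd over Hoxb13hd was -0.47 (SE 0.14, adjusted p = 0.120, edgeR), and was called without Hoxb13hd replicate 1 (adjusted p = 0.0448, edgeR). In that comparison 412 of 17537 genes were called without the library, against 165 of 17202 with it. Rcc1, a nuclear exchange factor gene on the same strand, spans 5592 of the 5673 bases of Snhg3, so reads there could be assigned to either.

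Snhg12, at chr4:132308623-132311024 (plus strand), hosts Snora16a, Snora44, Snora61 and the box C/D Snord99. It had 20.7, 20.4 and 18.7 CPM in Del(i9-13):Hoxb13hd, 23.4, 23.7 and 20.9 in Del(i9-13) and 23.6, 28.9 and 32.97 in Hoxb13hd, against 20.6, 25.8 and 20.97 in WT. The double mutant lay below Hoxb13hd without overlap, at a log2 fold change of -0.52 (SE 0.12, adjusted p = 0.0675, edgeR). Without Hoxb13hd replicate 1, the lowest of its group, Snhg12 was called in that comparison (adjusted p = 0.0191, edgeR). It was then also called in Hoxb13hd against WT (log2 0.46, adjusted p = 0.0463, edgeR). That fit called more genes in general: 412 of 17537 in the first comparison, against 165 of 17202 with all libraries. In Hoxb13hd against WT the fit called 676 genes, against 517. Snhg8, at chr3:123507552-123508404 (minus strand), hosts Snora24. It had 24.0, 25.3 and 24.7 CPM in Del(i9-13):Hoxb13hd, 24.95, 31.1 and 27.0 in Del(i9-13) and 24.0, 28.6 and 29.1 in Hoxb13hd, against 22.5, 24.9 and 22.7 in WT. Its E10.5 log2 fold changes between groups lay between -0.17 and 0.24 and none was called.

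By comparison, Del(i9-13):Hoxb13hd against Hoxb13hd had the lowest median of the 8. In edgeR 2 of the 8 were called, Snhg1 and Snhg4, both lower, where 0.285% of all genes were called lower. Of the 8, 7 were negative with a median log2 of -0.42, beside -0.01 over all genes, and 6 were lower without overlap, where 10.3% of all genes were. Gas5 (0.03) and Snhg8 (-0.14) were the 2 whose libraries overlapped. The Del(i9-13):Hoxb13hd libraries here are those in which low Snhg1 and Snhg6 chose the set, so nothing is read from these counts. In the same groups the 3 neuron markers (Elavl3, Tubb3, Dcx) summed to 222 to 245 CPM in Del(i9-13):Hoxb13hd and 79.9 to 142 CPM in Hoxb13hd. The 7 liver and visceral endoderm markers summed to 260.2 to 334 CPM and 39.0 to 117 CPM, and the 4 macrophage markers to 5.23 to 10.04 and 1.89 to 4.62 CPM, with none of these genes at 0 in either group. The head and brain markers also stood apart, at 35.0 to 38.9 CPM in Del(i9-13):Hoxb13hd (2 of 5 at 0) and 24.0 to 30.6 CPM in Hoxb13hd (1 of 5 at 0). The part of those cell types in the host gene values was not tested.

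Against Del(i9-13), the double mutant had 1 of 8 called in edgeR, Snhg6, lower, where 0.36% of all genes were called lower. Here 7 of 8 were negative, with a median log2 of -0.25, beside -0.02 over all genes, and 6 were lower without overlap, where 8.99% of all genes were. Snhg3 was the exception, at 0.18 (SE 0.14) and higher without overlap, where 11.3% of all genes were. The same Del(i9-13):Hoxb13hd libraries chose the set, so nothing is read from these counts either. The neuron markers summed to 222 to 245 CPM in Del(i9-13):Hoxb13hd and 191 to 252 CPM in Del(i9-13), and overlapped, as did the liver and visceral endoderm markers and the head and brain markers.

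The single mutants against WT gave no call at E10.5 in edgeR. For Hoxb13hd 0 of 8 were called, where 3.01% of all genes were, and 6 of 8 had an unadjusted p below 0.05, where 20.4% of all genes did. The values were positive for 6 genes, with a median log2 of 0.22, and DESeq2, which called 7.21% of all genes, called 2, Snhg3 higher and Snhg6 lower. The neuron markers summed to 79.9 to 142 CPM in Hoxb13hd against 153 to 257 CPM in WT, and the liver and visceral endoderm markers to 39.0 to 117 against 184 to 595 CPM, a difference whose part was not tested. For Del(i9-13) 0 of 8 were called, where 0.488% of all genes were, 3 of 8 had an unadjusted p below 0.05 (9.13% of all genes), and DESeq2 also called 0 (1.6% of all genes). The 8 values were split, 4 positive and 4 negative, with a median of -0.00. The head and brain markers summed to 32.9 to 36.8 CPM in Del(i9-13) against 21.4 to 26.99 CPM in WT, without overlap. The macrophage markers also stood apart, at 8.27 to 12.3 against 4.79 to 8.07 CPM. The neuron markers and the liver and visceral endoderm markers overlapped. The part of these cell types was not tested.

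The interaction asks whether the deletion's log2 effect within the Hoxb13hd background differs from its effect within WT. All 8 genes had a negative interaction, where 50.29% of all genes did, with a median of -0.37. The widest were Snhg1 (-1.04, SE 0.22, adjusted p = 0.0683) and Snhg6 (-0.57, SE 0.14, adjusted p = 0.127) in edgeR. In edgeR 0 of 8 were called, where 0.523% of all genes were, 6 of 8 had an unadjusted p below 0.05 (11.7% of all genes), and DESeq2, which called 1.73% of all genes, called 2, Snhg1 (adjusted p = 0.000711) and Snhg6 (0.0283). In edgeR Snhg1 was called without Del(i9-13) replicate 2 (-1.20, adjusted p = 0.00546), and Snhg6 without Del(i9-13) replicate 1 (-0.63, adjusted p = 0.0471). These 2 fits called 70 of 17544 and 174 of 17497 genes, against 90 of 17202 with all libraries. The interaction uses the Del(i9-13):Hoxb13hd libraries, whose Snhg1 and Snhg6 values chose the set, so nothing is read from these counts.

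The E9.5 libraries were separate from those that chose the genes. Of the 8, edgeR called 0, where 0.362% of all genes were called, 1 had an unadjusted p below 0.05 (11.7% of all genes), and DESeq2 called 0 (2.05% of all genes). The median log2 fold change of Del(i9-13) over WT was 0.15, with 6 of 8 positive, beside 0.00 over all genes. Gas5 had 199.7, 190.1 and 203 CPM in Del(i9-13) against 188, 165 and 176 CPM in WT, without overlap (9.06% of all genes were higher without overlap), at a log2 of 0.16 (SE 0.06, adjusted p = 0.368, edgeR). Snhg4 had 40.5, 31.6 and 34.7 CPM in Del(i9-13) against 32.0, 30.1 and 30.4 CPM in WT (log2 0.21, SE 0.09, adjusted p = 0.433, edgeR), and the groups overlapped. The neuron markers summed to 20.5 to 34.4 CPM in Del(i9-13) against 47.0 to 62.0 CPM in WT, and the head and brain markers to 13.4 to 19.8 CPM against 20.5 to 24.6 CPM, with none at 0, and their part was not tested.

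Snhg1 was the gene apart at E9.5. It had 88.8, 83.5 and 90.9 CPM in Del(i9-13) against 83.8, 165 and 169 CPM in WT, so that WT replicate 1 sat among the mutants and the other two WT libraries were high. The log2 fold change was -0.67 (SE 0.29, adjusted p = 0.480, edgeR). Without WT replicate 1 it was -0.93 and called (adjusted p = 0.000935, edgeR), and with Xist as a covariate it turned to 0.08. Xist, the RNA of the inactive X chromosome in female cells, had 43, 31 and 32 counts in Del(i9-13) against 45, 44046 and 46969 counts in WT. The 2 WT libraries with high Snhg1 were thus the 2 with high Xist, and genotype and Xist level cannot be told apart for this gene at E9.5. At E10.5, where Xist was high in 1 or 2 of the 3 libraries of every group, the Xist covariate moved no Snhg1 value across zero.

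The deletion's effect at E10.5 minus its effect at E9.5 called 0 of 8 in edgeR, where 0.0453% of all genes were called, and 0 in DESeq2 (0.498% of all genes), with 1 of 8 at an unadjusted p below 0.05 (6.86% of all genes). That was Snhg4 (-0.43, SE 0.15, adjusted p = 0.529, edgeR), positive at E9.5 and negative at E10.5, and stage and library type cannot be told apart in it.

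The snoRNAs inside the hosts were next. GENCODE M21 places 31 snoRNA entries within the 8 genes: 8 in Snhg1, 2 in Snhg3, 2 in Snhg4, 2 in Snhg5, 1 in Snhg6, 1 in Snhg8, 5 in Snhg12 and 10 in Gas5. The entries of Snhg1 and Snhg6 are printed from GENCODE M21 (GRCm38) because these 2 hosts were the ones whose values chose the set. Capitals mark TGATGA, a common form of box C, within the first 25 bases and CTGA, box D, within the last 15 bases, searched on the strand of the snoRNA. Snhg1's entries lie on the plus strand at chr19:8723993-8724064, chr19:8724251-8724325, chr19:8724531-8724602, chr19:8724868-8724943, chr19:8725092-8725156, chr19:8725341-8725409, chr19:8725594-8725660 and chr19:8725866-8725991 in the order shown, and Snord87 on the minus strand at chr1:9942463-9942549.
Gm25855: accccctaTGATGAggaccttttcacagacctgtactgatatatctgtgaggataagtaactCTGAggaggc
Gm25894: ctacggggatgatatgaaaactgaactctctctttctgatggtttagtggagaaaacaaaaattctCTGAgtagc
Gm24452: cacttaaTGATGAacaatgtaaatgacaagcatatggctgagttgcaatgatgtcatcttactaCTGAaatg
Gm24453: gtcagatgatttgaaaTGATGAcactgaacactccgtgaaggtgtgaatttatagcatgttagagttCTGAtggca
Gm22744: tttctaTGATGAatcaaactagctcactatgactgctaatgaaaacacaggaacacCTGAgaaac
Gm22680: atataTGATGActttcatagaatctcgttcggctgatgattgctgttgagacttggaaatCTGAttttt
Gm23246: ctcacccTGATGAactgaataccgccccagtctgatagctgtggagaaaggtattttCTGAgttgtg
Snord22: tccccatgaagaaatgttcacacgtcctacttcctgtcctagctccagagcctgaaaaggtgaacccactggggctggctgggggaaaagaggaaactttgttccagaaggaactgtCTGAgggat
Snord87: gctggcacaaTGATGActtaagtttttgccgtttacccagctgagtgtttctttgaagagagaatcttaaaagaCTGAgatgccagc
CTGA stood at the end of 8 of the 8 Snhg1 entries, against 31.4% of 1507 annotated snoRNAs, and both words stood in 6 of the 8, against 20.3%. The 1507 mix box C/D and box H/ACA snoRNAs, so these shares are not those of the box C/D class. Snord22 and Gm25894 lacked TGATGA in that window.

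Counts gave a value for few of these snoRNAs. Of 29 entries in the count table, 26 had 0 counts in all 18 libraries, and each of those 26 overlaps an annotated exon of its host, where a read belongs to more than 1 gene. The 3 with counts were Snord87, Snora73a and Snora73b. Snord87, which lies in an intron of Snhg6, had 13, 17 and 12 counts in Del(i9-13):Hoxb13hd, 17, 12 and 25 in Del(i9-13) and 22, 18 and 20 in Hoxb13hd, against 13, 15 and 9 in WT. Hoxb13hd was above WT without overlap, where its host Snhg6 was below, but Snord87 was not called there (log2 0.87, SE 0.32, adjusted p = 0.150, edgeR) or in any other comparison by edgeR.

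FPKM, made by a separate program, was above 0 in all 12 E10.5 libraries for 8 entries and at 0 in all 18 libraries for 17. It shares reads between overlapping transcripts by estimate, so a value for a snoRNA inside a retained intron is uncertain, and both library preparations favour RNA longer than a snoRNA.

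Among the Snhg1 entries, Snord22 alone had FPKM above 0, and it ran against its host. It had 40.8, 42.9 and 51.2 FPKM in Del(i9-13):Hoxb13hd, 34.4, 40.3 and 39.1 in Del(i9-13) and 23.3, 22.4 and 25.7 in Hoxb13hd, against 34.6, 32.1 and 38.7 in WT. The double mutant was highest and Hoxb13hd lowest without overlap, while for Snhg1 the double mutant was lowest and Hoxb13hd had the highest mean. Del(i9-13):Hoxb13hd rose over Hoxb13hd by 0.91 on the log2(FPKM + 0.1) scale (SE 0.10, adjusted p = 0.000926, limma), where 1.8% of 12447 genes were called in either direction. Hoxb13hd fell below WT by 0.56 (SE 0.10, adjusted p = 0.0198, limma), where 2.19% were called. The second call was lost without WT replicate 1 (adjusted p = 0.0762), WT replicate 3 (0.0785) or Hoxb13hd replicate 2 (0.0999), by limma. Snord22 overlaps exons of 5 annotated Snhg1 transcripts, and it was singled out after its values were seen.

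Of the 10 hosted entries that passed the FPKM filter at E10.5, Snord22 was the only one called by limma in any of the 5 E10.5 comparisons; in the other 3, 0.193% of genes were called for the double mutant against WT, 0.498% for Del(i9-13) against WT and 1.57% for the double mutant against Del(i9-13). Snora73a, in Snhg3, had 866, 1102 and 784 FPKM in Del(i9-13):Hoxb13hd, against 934, 1071 and 788 in WT, a log2 difference of -0.02 (SE 0.19, adjusted p = 0.972, limma). The count table held 7, 12 and 10 counts of Snora73a in the same Del(i9-13):Hoxb13hd libraries, against 8, 6 and 10 in WT, so its FPKM and its counts differ widely and the FPKM level is uncertain. Snora73b had 3194, 4437 and 2994 counts in Del(i9-13):Hoxb13hd, against 3100, 4411 and 3047 in WT (log2 -0.04, SE 0.20, adjusted p = 0.959, edgeR). The pair are near copies, so reads could be split between them. Of the 3 entries that passed at E9.5, none was called, where 0.434% of genes were, and Snord22 had 3.29, 5.32 and 5.92 FPKM in Del(i9-13) against 2.64, 4.09 and 2.45 in WT (log2 0.64, SE 0.27, adjusted p = 0.459, limma).

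**Figure D3:**
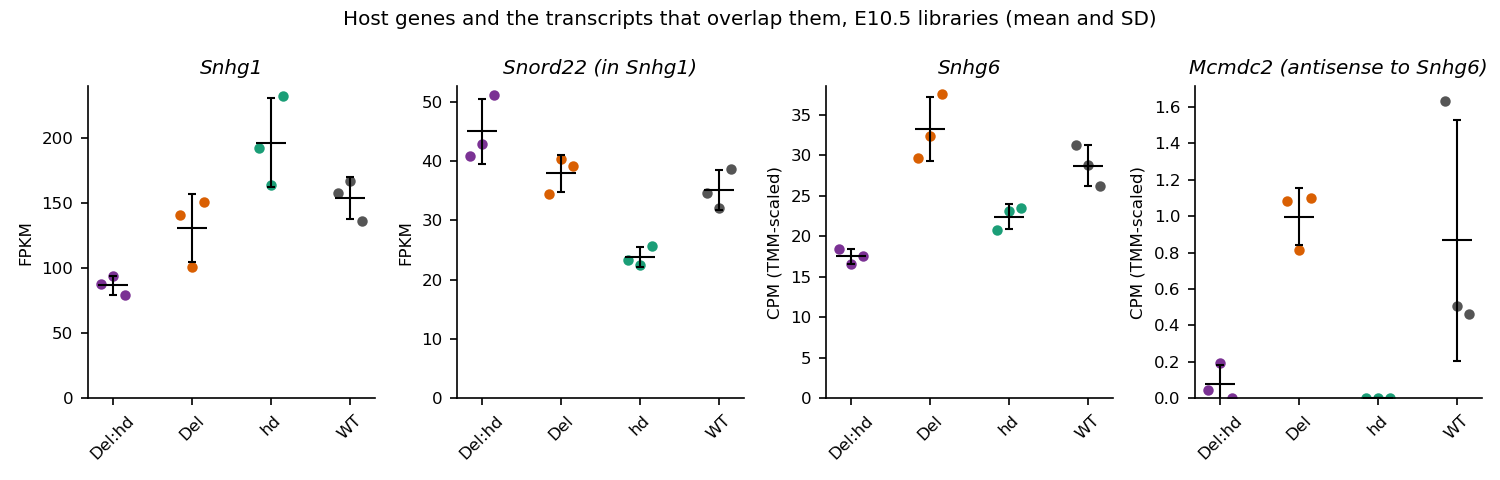
Snhg1 and the snoRNA Snord22 inside it (FPKM), and Snhg6 and its antisense neighbour Mcmdc2 (CPM, TMM-scaled), in the E10.5 groups, on linear axes from 0. Points are libraries and bars the mean and SD of 3; Snord22 is highest in Del:hd, where Snhg1 is lowest, and Mcmdc2 is at or near 0 in both hd groups, where Snhg6 is low.

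Protein-coding neighbours that overlap a host or start within 2000 bases of it were measured for 4 of the genes. Gm28285, the neighbour of Snhg4, had no counts to measure. Slc3a2, an amino acid transporter subunit gene, starts 106 bases from Snhg1 on the other strand. Its log2 fold change was -0.26 in Del(i9-13):Hoxb13hd against Hoxb13hd (SE 0.07, adjusted p = 0.0859, edgeR), where Snhg1 was at -1.29, and -0.08 against WT (SE 0.07, adjusted p = 0.676). Zbtb37 overlaps Gas5 by 428 bases on the other strand, where reads could be assigned to either, and none of Slc3a2, Rcc1 and Zbtb37 was called in any comparison by edgeR.

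Mcmdc2, a gene for a meiotic protein of the MCM helicase family, overlaps the end of Snhg6 by 127 bases on the other strand and was also low in both hd groups. It had 1, 5 and 0 counts in Del(i9-13):Hoxb13hd, 27, 18 and 26 in Del(i9-13) and 0, 0 and 0 in Hoxb13hd, against 36, 12 and 11 in WT. Hoxb13hd was called below WT (adjusted p = 0.0206, edgeR) and was at least 17.8-fold lower, taking 3 counts over the group as the floor. The double mutant was not called against WT (adjusted p = 0.121) or against Del(i9-13) (0.064, both edgeR). With so few counts in the overlapping gene, and with no statement that counting used strand, reads of the pair in the overlap cannot be told apart. Within 500 kb of Snhg6 no other gene was called in Hoxb13hd against WT, out of 15 tested.

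Other genes of snoRNA biology were set beside these hosts. Of 12 further noncoding hosts listed, 11 were in the table and tested, and Snhg7 was not found. Their median log2 was -0.45 in Del(i9-13):Hoxb13hd against Hoxb13hd, -0.29 against Del(i9-13) and -0.19 against WT, with 10 of 11 negative in each, where 52.34%, 53.27% and 49.74% of all genes were negative. Zfas1, host of a group of box C/D snoRNAs, was the 1 called, where 0.285% of all genes were called lower, with 31.4 ± 1.5 CPM in Del(i9-13):Hoxb13hd and 43.6 ± 5.45 CPM in Hoxb13hd (SD, n = 3 each; log2 -0.47, adjusted p = 0.0359, edgeR). At E9.5 the median was 0.04 with 0 of 11 called.

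Protein-coding hosts had medians close to those of all genes. Of 279 listed, 244 were tested at E10.5, and their median log2 was -0.03 in Del(i9-13):Hoxb13hd against Hoxb13hd (1 called higher, where 0.674% of all genes were, and 0 lower), -0.00 against Del(i9-13) (0 higher and 1 lower, where 0.36% were called lower) and -0.04 against WT (0 called, where 0.401% were in either direction). The 1 higher was Lrrc4c, a synaptic adhesion gene, at 0.999 ± 0.0926 CPM in Del(i9-13):Hoxb13hd and 0.315 ± 0.139 CPM in Hoxb13hd (log2 1.67, adjusted p = 0.0446, edgeR). In Hoxb13hd against WT 3 were called higher and 3 lower, where 1.42% and 1.59% of all genes were, among them Tbrg4 (log2 0.41, adjusted p = 0.0169) and Ppan (0.34, 0.0277), a ribosome assembly gene, and lower, Hspa8 (-0.61, 0.0273), a heat shock protein gene, all by edgeR.

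Ribosomal protein genes, whose mRNAs share the C and T start run, numbered 84, of which 81 were tested. In Hoxb13hd against WT 4 were called higher and 0 lower, where 1.42% and 1.59% of all genes were: Rpl28 (log2 0.40, adjusted p = 0.0211), Rps26 (0.45, 0.0337), Rps29 (0.34, 0.0399) and Rps15 (0.37, 0.048), by edgeR. Their median was 0.13 there and -0.13 in Del(i9-13):Hoxb13hd against Hoxb13hd, where 78 of 81 were negative, against 52.34% of all genes, and 0 were called. Against Del(i9-13) the median was -0.15, and against WT -0.02, beside -0.26 for the 8 hosts. At E9.5 1 was called, Rpsa, higher, where 0.0935% of all genes were called higher, with 1644 ± 99.1 CPM in Del(i9-13) and 1238 ± 2.08 CPM in WT (SD, n = 3 each; log2 0.41, adjusted p = 0.017, edgeR).

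**Figure D4:**
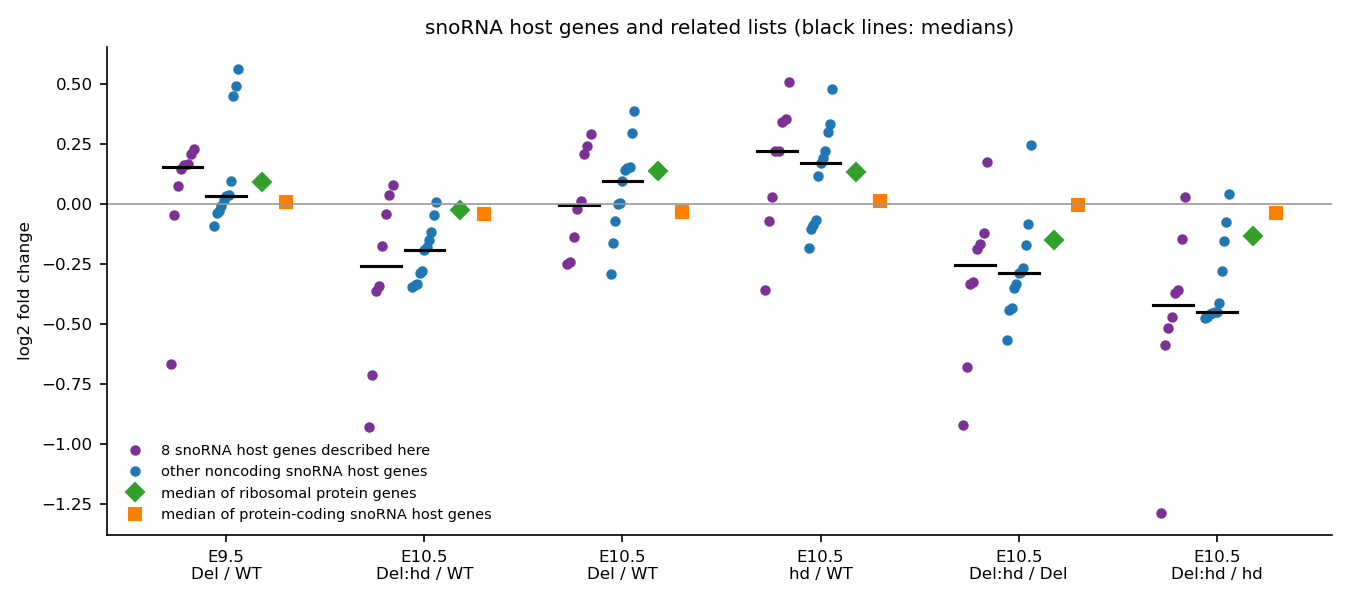
Log2 fold change (vertical axis, edgeR) of the 8 host genes and 11 other noncoding hosts as points, with medians as black lines, and the medians of ribosomal protein genes and protein-coding hosts as single marks, in 6 comparisons. Both noncoding lists have negative medians in the 3 comparisons of Del:hd, while the protein-coding hosts have medians between -0.04 and 0.01 throughout.

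Genes for the machinery that makes, binds or removes these RNAs were set beside the hosts too. Of 17 snoRNP proteins and assembly factors, 1 was called in any comparison, higher in Hoxb13hd against WT, where 1.42% of all genes were called higher: Znhit6, a box C/D assembly factor, at 26.2 ± 1.90 CPM in Hoxb13hd and 19.9 ± 1.67 CPM in WT (SD, n = 3 each; log2 0.40, adjusted p = 0.0434, edgeR). Of 14 ribosome biogenesis genes, Myc, a growth regulator, was higher in Hoxb13hd than in WT (60.8 ± 2.91 and 40.8 ± 6.56 CPM, log2 0.57, adjusted p = 0.042, edgeR). Polr1b, a subunit of RNA polymerase I, was lower in Del(i9-13) than in WT, where 0.244% of all genes were called lower (71.9 ± 6.66 and 103 ± 4.47 CPM, log2 -0.52, adjusted p = 0.00251), and higher in Del(i9-13):Hoxb13hd than in Del(i9-13), where 0.546% were called higher (log2 0.45, adjusted p = 0.00634, edgeR). None of 16 nonsense-mediated decay factors and none of 10 integrated stress response genes was called by edgeR in any of the comparisons, and their medians against WT in the double mutant were 0.01 and 0.05.

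Likeness of pattern was measured across the 12 E10.5 libraries. The correlation of each with the mean standardised profile, in which it takes part, ran from 0.31 for Gas5 and 0.55 for Snhg6 to 0.88 for Snhg12 and 0.93 for Snhg5 (Pearson r of log2 CPM). Genes outside the list with the highest r were Snord34 and Epb41l4aos (0.95 each), Tmem243, Tars2 and Bcat1 (0.93 each), Zfas1 and Pex7 (0.92 each) and Liph (0.91). Zfas1 is also a snoRNA host and Snord34 is a snoRNA inside a ribosomal protein gene. At E9.5, over 6 libraries, Snhg1 ran against the rest (-0.77), while Gas5 was closest to the mean profile (0.92). The highest outside the list there were Srsf5 (0.99), Mtpn, Usp25, Syap1, Ocel1, Brat1, Gpm6a and Gramd3 (0.97 to 0.98), and none of these appeared in the E10.5 set. The libraries share their group structure and depth, so these values describe the libraries only.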

How the data were processed

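The authors deposited raw read counts of 55141 Ensembl genes and, in another table, FPKM of 55138 genes. The tools named in the submitters' processing notes are cutadapt 1.18, STAR 2.7.10a and Cufflinks 2.2.1, with mm10 as the build, and the deposited tables are named for HTSeq (counts) and Cufflinks (FPKM). The annotation and strand setting of the counting were not given in the sources used here. All columns were assigned to samples by their names and 0 were left unused.

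Counts were tested with edgeR 4.0.16 (quasi-likelihood F test, filterByExpr with a minimum count of 10 and total of 15, TMM scaling, robust), in 1 fit for the 6 E9.5 libraries and 1 for the 12 E10.5 libraries, and in 1 fit over the 12 WT and Del(i9-13) libraries for the difference between stages. p-values were adjusted by Benjamini-Hochberg over all genes tested, and called means 0.05 or less. All 8 host genes passed the filter. Because nearly all hosted snoRNAs had 0 counts, limma 3.58.1 was run on log2(FPKM + 0.1) for genes with FPKM of at least 1 in 3 libraries, an analysis added after their values were seen. It understates changes of low genes. Alternatives were DESeq2 1.42.0, other scaling and filters, FPKM with limma, a replicate block, an Xist covariate, pairwise fits and leaving out each library. The fit was tested on simulated data. Coordinates and gene structures came from GENCODE M21 (mm10), and promoters from RefSeq.

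The genes named were all 8 members, the snoRNAs inside them, protein-coding neighbours, the 8 genes of most similar profile per stage (leaving out predicted, RIKEN, pseudogene and sex-linked symbols), and up to 4 members of each list with the smallest p. Members and lists were chosen with earlier results of these data known. Genes whose libraries do not overlap were counted on CPM. Of the head and brain marker list, 5 genes were summed and the remaining gene is not reported here, a choice made after seeing the data, as was the edgeR test of hosted snoRNAs with counts.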

Additional observations from a re-analysis of the deposited data

How the results depend on the processing

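Under the alternatives the median log2 of the 8 host genes moved by less than the spread between replicates in all 8 comparisons, while counts of called hosts moved. For Del(i9-13):Hoxb13hd against WT, 2 were called, 1 with no filter, with limma on FPKM (pseudocount 0.1, 1, or 0.1 with no filter) and 0 to 1 without 1 library. Over all genes 69 of 17202 were called, and 86 of 32451 with no filter. Limma called 24 and 30 of 12447 genes and 21 of 30186, and fits without 1 library 14 to 41. For Hoxb13hd against WT, 0 were called, 1 with no filter or limma (all 3 settings), 2 with DESeq2 and 0 to 2 without 1 library. The counts over all genes were 517 of 17202, 521 of 32451 with no filter and 1240 of 17202 with DESeq2. They were 272 and 277 of 12447 and 132 of 30186 with limma, and 51 to 676 without 1 library. For Del(i9-13):Hoxb13hd against Del(i9-13), 1 was called, 3 with DESeq2, 2 with the Xist covariate and 1 to 2 without 1 library. Of all 17202 genes, 156 were called there, 673 with DESeq2 and 122 with the covariate, and 58 to 1453 genes without 1 library. Against Hoxb13hd, 2 were called, 4 with no filter, 6 with DESeq2, 1 with limma at pseudocount 0.1 and no filter, and 1 to 5 without 1 library. All-gene counts were 165 of 17202, 329 of 32451 with no filter and 658 of 17202 with DESeq2. With that limma setting the count was 43 of 30186, and without 1 library 36 to 412. For the interaction 0 were called, 2 with DESeq2 and 0 to 1 without 1 library, where all-gene counts were 90, 297 and 40 to 174. For E9.5, 0 were called and 0 to 1 without 1 library, where all-gene counts were 58 and 40 to 53. The causes were not tested.

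Signs turned mainly for small log2 values. With the Xist covariate larger values turned too: Snhg1 at E9.5 and between stages, the widest of the 8 in each, and Snhg6 at E9.5. The ranges given are over all fits that left out 1 library. At E9.5 Snhg8 (-0.05) became 0.020, 0.019 and 0.020 in the 3 limma settings and ranged from -0.174 to 0.031, and with the Xist covariate Snhg1 (-0.67) became 0.080 and Snhg6 (0.23) became -0.030. For E10.5 Del(i9-13) against WT, Snhg5 (-0.02) became 7.2e-05, 8.80e-06 and 7.2e-05 with limma and ranged from -0.070 to 0.035, and Snhg12 (0.01) became -0.062, -0.059 and -0.062 with limma and ranged from -0.044 to 0.126. Snhg5 in Hoxb13hd against WT (0.03) ranged from -0.026 to 0.105, and Gas5 in Del(i9-13):Hoxb13hd against Hoxb13hd (0.03) from -0.062 to 0.179. For the difference between stages, Snhg1 (0.43) became -0.31 and Snhg6 (-0.00) became 0.13 with the Xist covariate, and Snhg6 became 0.0038 with the replicate block and ranged from -0.157 to 0.080.

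The replicate numbers did not pair the samples: in none of the 6 comparisons was every same-numbered pair correlated above 0.1, and each library correlated best with its own number only in Del(i9-13):Hoxb13hd against WT. With the replicate block 1 host gene was called in that comparison, 1 in Hoxb13hd against WT and 3 in Del(i9-13):Hoxb13hd against Hoxb13hd. Counts over all genes also depended on the tool: DESeq2 called 329 genes at E9.5 (edgeR 58), and at E10.5 326 for Del(i9-13):Hoxb13hd against WT (69), 276 for Del(i9-13) (84), 1240 for Hoxb13hd (517), 673 against Del(i9-13) (156), 658 against Hoxb13hd (165), 297 for the interaction (90) and 88 between stages (8). Genes tested by both tools numbered 16041 at E9.5, 17202 at E10.5 and 17670 between stages. The smallest difference detectable with 3 libraries a group was not measured.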
